A study of Mus musculus with 24 samples.

Results

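Plasminogen activation and coagulation control is described here through 8 of the 20555 genes in the deposited tables: Plat, Plau, Plaur, Thbd, Procr, F3, Vwf and Tfpi. The genes were chosen by symbol with results of these data already known. They were selected on a gene family whose member Plat was among the genes of smallest p when wild-type exosomes were compared with PBS in endothelial cells, so that comparison is given for all 8 as a description. Counts of genes past a threshold are printed for it beside the share of all genes, and they support nothing about these 8. The study measured RNA in endothelial cells and microglia sorted from mouse brain slices, and its title concerns tumour exosomes and the protein CEMIP. Slices received phosphate-buffered saline (PBS) or PKH67-labelled exosomes at 5 µg per slice over 2 days. The exosomes came from donor cells called wild type (WT) or from 2 knockouts (KO1 and KO2). The knocked-out gene, the donor cells, the mouse strain and the age are not given in the sample labels.

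The endothelial gate took cells with CD31 and without CD45. The microglia gate took CD45-positive cells in which CD11b and CD49d were low. All groups share the slice culture, digestion, myelin removal and sorting. The labels describe every sample as exosome-positive, PBS samples included, so the gate used for PBS is unclear. Samples are lettered A to C within a group, and no label says whether a letter is an animal, a culture or a preparation. The p-values therefore measure only the spread among these libraries, and that spread may be technical.

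Of 24 labelled samples, 21 were present in the tables. Endothelial cells had 10 libraries, with letters A to C for PBS and KO1, A and B for WT, and B and C for KO2. Microglia had 11 libraries, with letters A and B for PBS and A to C for each exosome group. The 3 remaining samples were not analysed here. The read totals recovered from the values ran from 18333130 to 35548372 reads in endothelial cells and from 21187488 to 43548417 in microglia. Summed counts of 10 endothelial markers ran from 186311 to 223644 in endothelial libraries and from 156 to 850 in microglia libraries. Sums of 10 microglia markers ran from 23595 to 35908 in microglia libraries, where P2ry12 had no counts except in KO1 B. Sums of 8 border-associated macrophage markers ran from 830 to 6296 there. The highest were the B libraries of the exosome groups (5315 for WT, 6296 for KO1, 5518 for KO2). Choroid plexus and ependyma markers, 97.6% of them Ttr, summed to 68 to 4725 in endothelial PBS libraries. Among exosome libraries the sum was 2938 (KO1) and 17394 (KO2) for letter C, and 168083 to 284400 for the 5 libraries lettered A or B. Levels below are normalised counts recovered from the deposited log2 values.

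Tissue plasminogen activator and urokinase are proteases that cut plasminogen into plasmin, which dissolves fibrin and also degrades matrix. Endothelium keeps blood fluid by thrombomodulin and the endothelial protein C receptor, which together let thrombin activate protein C, and by tissue factor pathway inhibitor. Tissue factor starts coagulation, and von Willebrand factor, stored in endothelial Weibel-Palade bodies, tethers platelets.

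The genes lie on 6 chromosomes of GRCm38.p6. Plat (gene 18791) spans chr8:22757722-22782848 and Plau (18792) spans chr14:20836662-20843388. Plaur (18793) spans chr7:24460937-24475970 and F3 (14066) spans chr3:121723537-121735052. Thbd (21824), Procr (19124) and Tfpi (21788) lie on chr2, at 148404471-148408188, 155751125-155755478 and 84432855-84476775. Vwf (22371) spans chr6:125552948-125686679.

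Of the 8 genes, 4 matched RefSeq's promoter table of GRCm38.p6. The table's starts for Procr, Plaur and Tfpi lie inside the gene spans given above, so those windows overlap or lie within the gene. The 250 bases before the table's start are shown for the 3 of these 4 genes that hold an AP-1 motif. This motif was chosen because AP-1 is a class of factors known to bind at such motifs in responses to injury and inflammation. Sequences run 5′ to 3′ on the strand of the gene (plus in each case), with the AP-1 motif TGANTCA in capitals. The windows are chr3:121723287-121723536 for F3, chr2:155750967-155751216 for Procr and chr7:24462233-24462482 for Plaur.
F3: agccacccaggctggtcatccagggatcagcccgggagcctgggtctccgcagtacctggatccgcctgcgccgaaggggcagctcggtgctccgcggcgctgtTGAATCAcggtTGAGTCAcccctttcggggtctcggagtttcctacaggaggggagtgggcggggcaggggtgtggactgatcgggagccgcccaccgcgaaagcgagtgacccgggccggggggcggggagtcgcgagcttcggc
Procr: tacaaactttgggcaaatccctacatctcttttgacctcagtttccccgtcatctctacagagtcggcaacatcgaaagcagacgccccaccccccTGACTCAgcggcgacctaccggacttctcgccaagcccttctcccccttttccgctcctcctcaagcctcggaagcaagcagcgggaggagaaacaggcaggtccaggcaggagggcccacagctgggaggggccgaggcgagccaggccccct
Plaur: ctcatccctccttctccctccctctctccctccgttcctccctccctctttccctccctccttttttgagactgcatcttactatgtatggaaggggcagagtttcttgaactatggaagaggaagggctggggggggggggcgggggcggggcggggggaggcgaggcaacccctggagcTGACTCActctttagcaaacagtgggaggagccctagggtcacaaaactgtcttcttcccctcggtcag
F3 held 2 copies, beginning 146 and 135 bases before the start, Procr 1 copy at 154 and Plaur 1 copy at 69. The motif, which reads as the same pattern on both strands, occurred in 6.75% of all 32851 promoter windows of this length in the table. The 2 Tfpi windows held none. Sp1 motifs (GGGCGG, both strands, 32.7% of windows) were found in F3, Plaur and Tfpi, and KLF motifs (CACCC, both strands, 52.0%) in F3, Procr and Tfpi. One KLF match in F3 begins 130 bases before the start and overlaps the end of the second AP-1 copy. Binding was not measured in these data, and a match is only a match of letters.

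Per kilobase of exon, Plaur and Plat led the 8 genes in PBS endothelial cells, at 23733 and 23140 normalised counts per kilobase. Procr followed at 12407, F3 at 1046, Thbd at 716, Plau at 371, Tfpi at 91.3 and Vwf at 80.7. Plaur and Plat did not differ beyond their spread, and neither did Tfpi and Vwf. In WT libraries Plau stood at 8005 per kilobase, close below Plat at 10836. In PBS microglia Plaur stood at 2434 and Procr at 1896 per kilobase, and the remaining genes between 2.45 (Vwf) and 188 (F3).

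Plat, tissue plasminogen activator, was lower in endothelial cells of every exosome group than in PBS. Its normalised counts were 62181, 57064 and 56037 in PBS A, B and C, and 27475 and 27248 in WT A and B. They were 31415, 31216 and 50091 in KO1 A, B and C, and 38610 and 37407 in KO2 B and C. No exosome library reached the PBS range. KO1 C lay closest to it, and the 5 knockout libraries all lay above both WT libraries. The mean was 58427 ± 3291 (SD, n = 3) in PBS, 27361 ± 160 (n = 2) in WT, 37574 ± 10841 (n = 3) in KO1 and 38009 ± 850 (n = 2) in KO2. Since these are bulk samples, fewer cells of a type and less RNA per cell cannot be told apart.

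Within letters, endothelial Plat of WT was 0.442 times PBS in A and 0.478 times in B. KO1 over WT was 1.14 in A and 1.15 in B, and KO2 over WT was 1.42 in B. In the letter C libraries, which have no WT, KO1 was 0.894 times PBS and KO2 0.668 times. The difference of WT minus PBS was -0.77 (SE 0.149) on the deposited log2 scale, which compresses changes. Sums of 8 capillary endothelium markers were 39773 to 55942 in PBS, 26168 to 28715 in WT, 23325 to 40023 in KO1 and 27227 to 33517 in KO2. Slc7a5 made up 36.1% and Car4 21.3% of the capillary marker counts in endothelial cells. The capillary sums, like Plat, were higher in every PBS library than in either WT library. Whether these sums follow cell content or the level of single genes was not tested, nor was their part in the Plat values.

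Plau, urokinase, was low in PBS endothelial cells and high in some but not all exosome libraries. Its counts were 624, 1380 and 606 in PBS A, B and C, and 23922 and 13575 in WT A and B. They were 19970, 10452 and 1651 in KO1 A, B and C, and 576 and 2748 in KO2 B and C. WT A, WT B, KO1 A and KO1 B stood at 10452 or above, while KO1 C and both KO2 libraries were at 2748 or below, beside a PBS range that reached 1380. The mean was 870 ± 441 (SD, n = 3) in PBS, 18748 ± 7317 (n = 2) in WT, 10691 ± 9162 (n = 3) in KO1 and 1662 ± 1536 (n = 2) in KO2. The ratio of means was 21.6 for WT over PBS, 12.3 for KO1 over PBS and 1.91 for KO2 over PBS.

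The knockouts differed in Plau in opposite directions in the letters they share, with KO1 over KO2 at 18.2 in B and 0.601 in C. In letter A, KO1 over WT was 0.835, and in letter B it was 0.770. In letter B, KO2 over WT was 0.0424 and KO2 over PBS 0.417. Over letter C, KO1 was 2.72 times PBS and KO2 4.53 times. KO1 A lay between the 2 WT libraries, and KO1 B, KO1 C and both KO2 libraries lay below them, KO1 B the least.

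**Figure D1:**
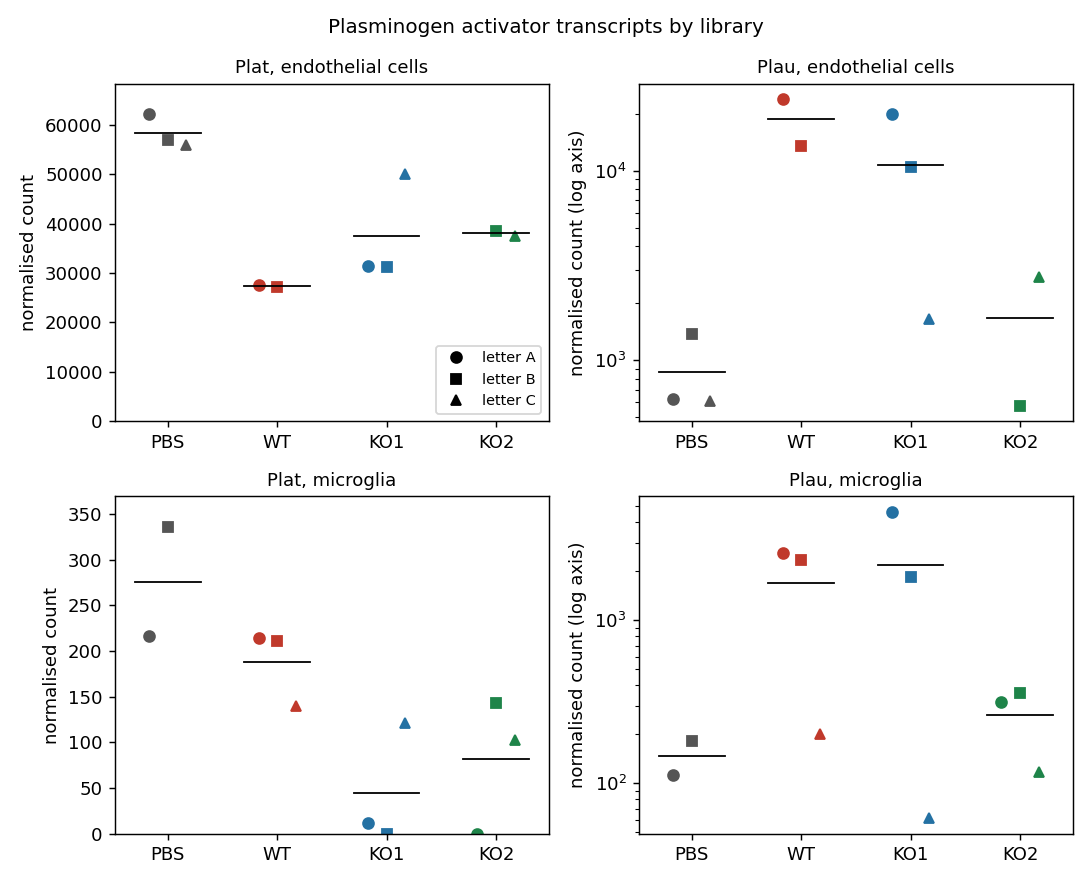
Normalised counts of Plat (linear y axis from 0) and Plau (log y axis) per library in both cell types by group, with the letter as the symbol and the group mean as a line. Endothelial Plat of every exosome library lies below the 3 PBS libraries, and endothelial Plau is at 10452 or above in the A and B libraries of WT and KO1.

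In endothelial cells the libraries of high Plau were also libraries of high choroid plexus sums. WT A, WT B, KO1 A and KO1 B had sums of 187840, 172956, 168083 and 284400, and the low-Plau PBS and letter C libraries had 17394 or less. KO2 B was the exception, with a sum of 261441 and 576 Plau counts. Sums of 8 venous endothelium markers moved in a like way, at 53222 and 108509 in WT A and B and 77855 and 72848 in KO1 A and B, beside 23373 to 29992 in PBS, 14963 and 21853 for letter C of KO1 and KO2, and 96725 in KO2 B. Sums of 8 fibroblast and meninges markers were 3232 to 9943 in those 4 libraries of high Plau, 575 to 1486 in PBS, 199 and 2078 for letter C of KO1 and KO2, and 8106 in KO2 B. Lcn2 made up 31.5% and Selp 19.4% of the venous marker counts in endothelial cells. Whether the venous sums follow cell content or the level of single genes was not tested. The part of RNA from choroid plexus, venous or fibroblast cells in the Plau values was not tested either. Sums of 10 microglia markers in endothelial libraries ran from 86 to 3245, and the 3 highest were the B libraries of the exosome groups (3245 for WT, 2618 for KO1, 2528 for KO2). In microglia the 4 libraries of highest Plau were ones with choroid plexus sums between 184 and 877, and the libraries with sums of 5733 (PBS A) and 10437 (KO2 B) had 112 and 356 Plau counts.

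**Figure D2:**
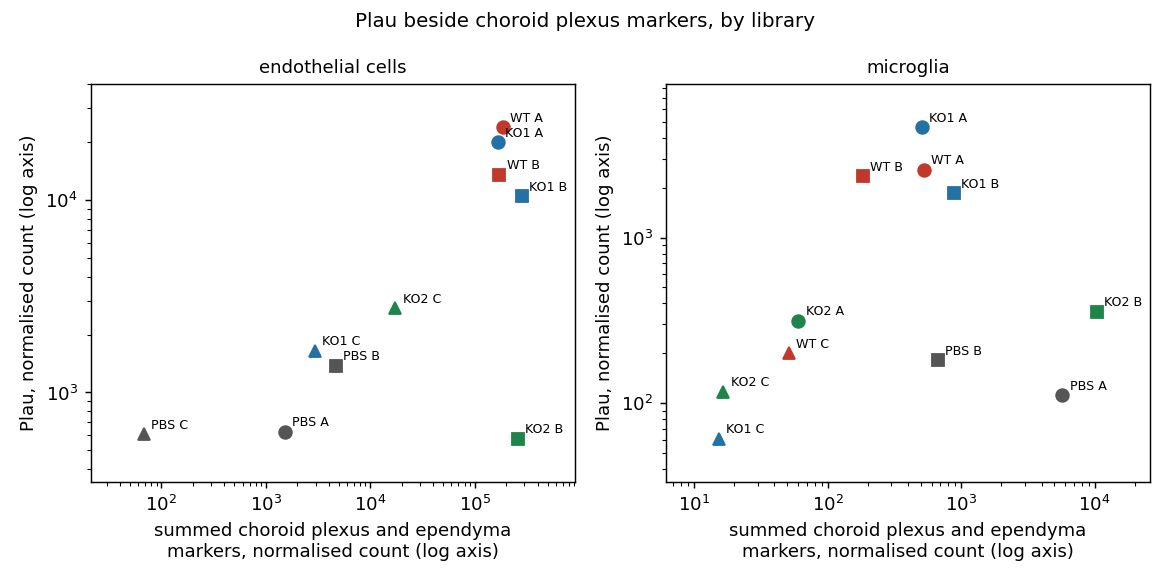
Plau normalised counts of each library (y axis, log scale) against its summed choroid plexus and ependyma markers (x axis, log scale), in both cell types. In endothelial cells the 4 libraries with Plau at 10452 or above have sums of 168083 or more, and KO2 B combines a sum of 261441 with 576 Plau counts.

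In microglia, whose table was normalised separately from the endothelial one, Plau was again high in the A and B libraries of WT and KO1. Its counts were 112 and 182 in PBS A and B, and 2573, 2340 and 200 in WT A, B and C. They were 4641, 1856 and 61.1 in KO1 A, B and C, and 315, 356 and 117 in KO2. Those 4 libraries stood apart from the other 7, which were at or below 356, and WT and KO1 each had their low value in letter C. The difference of WT minus PBS was 0.74 (SE 0.423, 95% interval -0.18 to 1.67, adjusted p = 0.948 with limma), and that of KO1 minus KO2 was 0.73 (SE 0.378, adjusted p = 1 with limma). In the authors' deposited table of a likelihood ratio test over all groups, Plau had an adjusted p of 0.000210 in microglia and the other 7 genes were not listed. Within letters, WT over PBS was 23.0 in A and 12.9 in B, and KO1 over WT was 1.80, 0.793 and 0.305 in A, B and C.

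Plat in microglia had few counts. Its counts were 216 and 336 in PBS A and B, and 214, 211 and 139 in WT A, B and C. They were 11.4, 0 and 121 in KO1 A, B and C, and 0, 143 and 103 in KO2. Both PBS libraries lay above all others, PBS A by about a read over WT A, and KO2 B lay above WT C. The difference of knockouts minus WT was -0.29 (SE 0.159, adjusted p = 0.9996 with limma), and that of knockouts minus PBS was -0.36 (SE 0.183, adjusted p = 0.964 with limma). Endothelium markers in the same libraries summed to 156 to 850, and their part in the Plat counts was not tested.

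Plaur, the urokinase receptor, was abundant in endothelium, and PBS, WT and KO1 overlapped. Its counts were 35571, 40505 and 31148 in PBS, 37597 and 24547 in WT, 36726, 30568 and 36776 in KO1, and 30742 and 28426 in KO2. WT A lay inside the PBS range and WT B below every other library. Both KO2 libraries lay below every PBS library. The share of all genes that part KO2 from PBS in this way was not computed, so nothing is read from it. In microglia Plaur was 2342 and 4989 in PBS, 5741, 5340 and 3041 in WT, 5804, 4041 and 3304 in KO1, and 3760, 6657 and 4061 in KO2. All 4 groups overlapped.

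Thbd, thrombomodulin, was 2377, 2897 and 2724 in PBS endothelium, 2904 and 915 in WT, 2342, 1448 and 2811 in KO1, and 1692 and 1375 in KO2. The lowest was WT B, and WT A was level with PBS B. Both KO2 libraries lay below every PBS library, and nothing is read from this without the share of all genes, which was not computed. In microglia Thbd ranged from 0 to 532, with 5 of 11 libraries under 3 counts, so its level there rested on few reads.

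Procr, the endothelial protein C receptor, was 14883, 26431 and 18128 in PBS, 19674 and 27201 in WT, 17659, 23347 and 19962 in KO1, and 27104 and 21984 in KO2. Within each group that has it, the letter B library was the highest. In microglia Procr was 1560 and 4495 in PBS, 2933, 3927 and 3522 in WT, 3138, 4254 and 3692 in KO1, and 3088, 3330 and 3201 in KO2. Here the letter B library was also the highest of each group, and all groups overlapped with PBS.

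F3, tissue factor, was 1645, 1717 and 2515 in PBS endothelium, 458 and 1283 in WT, 2149, 1698 and 1490 in KO1, and 1269 and 1131 in KO2. Both WT and both KO2 libraries lay below PBS, and WT A was the lowest of all. For KO2 against PBS no share of all genes was computed, so nothing is read from that separation. The KO1 libraries overlapped PBS and lay above both KO2 libraries. In microglia F3 was 277 and 428 in PBS, 168, 209 and 203 in WT, 458, 208 and 115 in KO1, and 0, 171 and 90.5 in KO2. Every WT and every KO2 library lay below both PBS libraries, and KO1 A was the highest of all. Here too the share of all genes was not computed for KO2 against PBS.

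**Figure D3:**
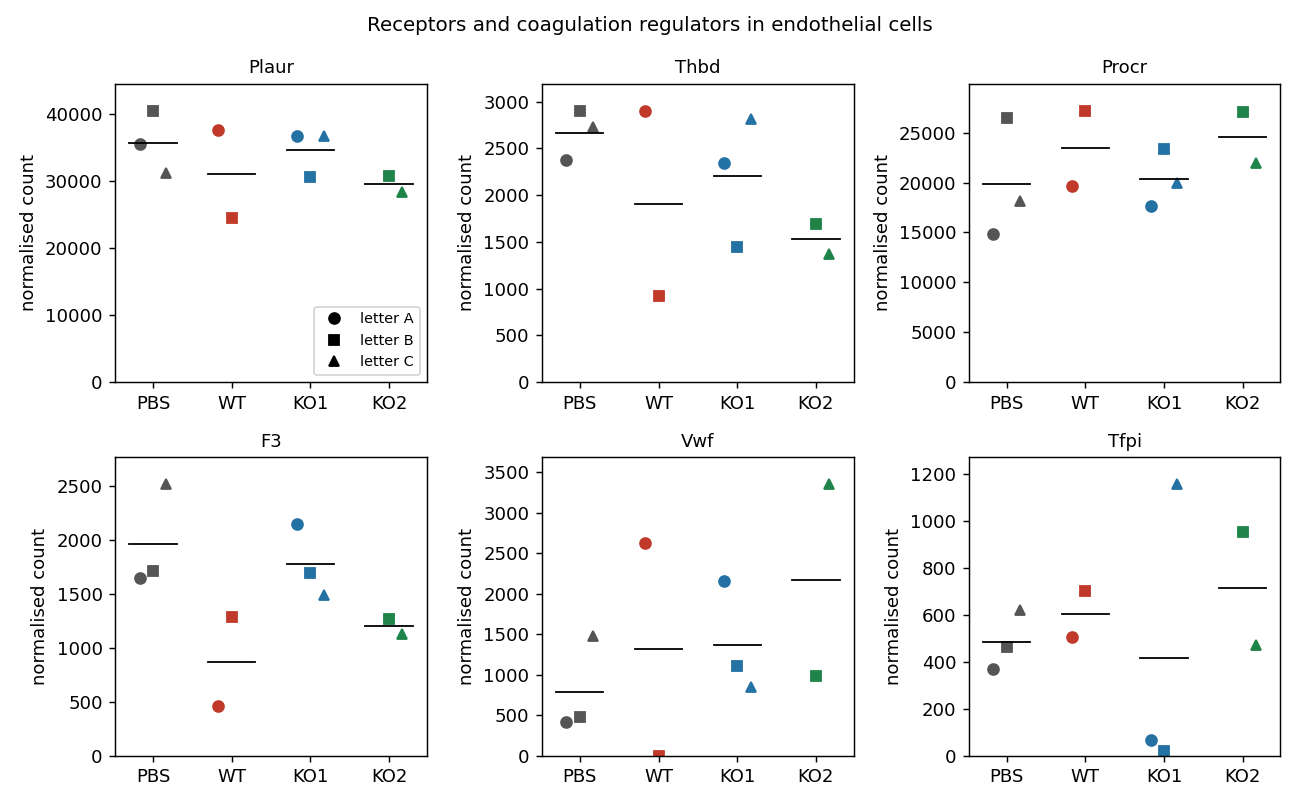
Normalised counts of Plaur, Thbd, Procr, F3, Vwf and Tfpi in endothelial libraries (y axis, linear, each from 0) by group, with the letter as the symbol and the group mean as a line. F3 of both WT libraries lies below PBS, and WT B is near 0 for Vwf.

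Tfpi, which blocks the tissue factor complex, was 368, 463 and 619 in PBS endothelium, 504 and 700 in WT, 68.2, 19.2 and 1155 in KO1, and 955 and 472 in KO2. KO1 spread most, with its A and B libraries lowest of all and C highest. In microglia Tfpi was 284 and 373 in PBS, 1007, 278 and 312 in WT, 632, 471 and 377 in KO1, and 465, 278 and 617 in KO2. WT A was the highest there, and the other libraries lay between 278 and 632.

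Vwf, von Willebrand factor, was 415, 476 and 1478 in PBS endothelium, 2625 and 1.72 in WT, 2153, 1105 and 846 in KO1, and 980 and 3351 in KO2. WT B, at about 2 reads, stood alone: every other endothelial library had at least 415. In that library the 10 endothelium markers summed to within the range of the others. Its 8 venous markers, led over the endothelial libraries by Lcn2 and Selp, summed to 108509, the highest of the 10 libraries. In microglia Vwf was 0 in 8 of 11 libraries, which allows up to 3 reads in each, and 47.8, 47.3 and 54.0 in PBS B, KO2 A and KO2 C.

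**Figure D4:**
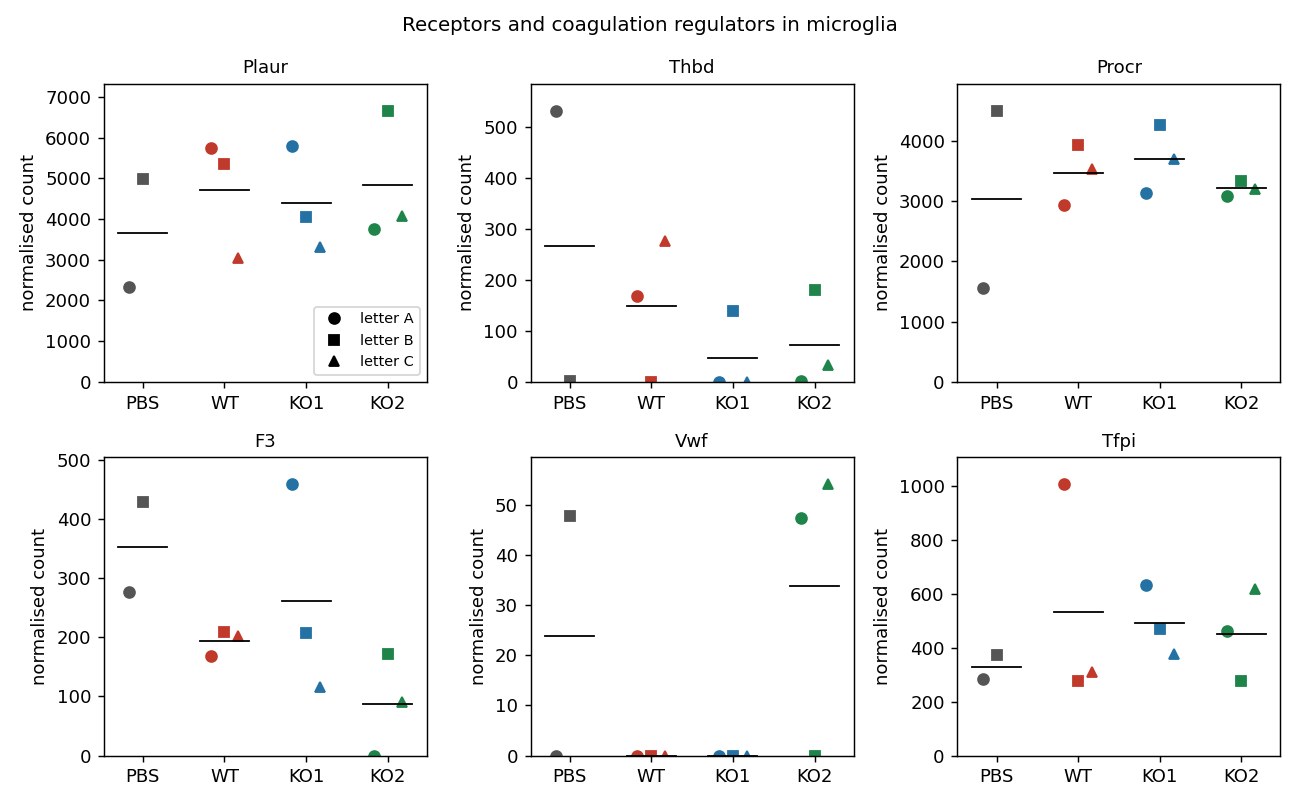
Normalised counts of Plaur, Thbd, Procr, F3, Vwf and Tfpi in microglia libraries (y axis, linear, each from 0) by group, with the letter as the symbol and the group mean as a line. Procr is highest in the letter B library of each group, and Vwf is 0 in 8 libraries.

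The 8 genes were compared across groups with limma on the deposited log2 values, fitted over 9477 endothelial and 11962 microglia genes. Of the 8, 0 passed an adjusted p of 0.05 for endothelial WT minus PBS (0.0106% of all genes tested), and nothing is read from that count. Likewise 0 passed for knockouts minus WT (0.0106% of all), for knockouts minus PBS (0% of all) and for KO1 minus KO2 (0% of all). In microglia 0 passed for WT minus PBS (0%), knockouts minus WT (0%), knockouts minus PBS (0.00836%) and KO1 minus KO2 (0%). At an unadjusted p under 0.05 by limma, the endothelial counts were 2, 1 and 1 of 8 for knockouts minus WT, knockouts minus PBS and KO1 minus KO2, where 9.31%, 5.49% and 6.45% of all genes passed. For WT minus PBS, in view of which the genes were chosen, the count was 3, beside 10.2% of all genes. In microglia the count was 0 of 8 in all 4 comparisons, where 5.13% (WT minus PBS), 3.24% (knockouts minus WT), 5.12% (knockouts minus PBS) and 3.59% (KO1 minus KO2) of all genes passed.

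In endothelial cells the difference of knockouts minus WT was -0.90 (SE 0.272, 95% interval -1.50 to -0.31, adjusted p = 0.374 with limma) for Plau and 0.30 (SE 0.137, adjusted p = 0.536 with limma) for Plat. This comparison shares its WT libraries, and the comparison of knockouts with PBS its PBS libraries, with the one in which Plat was first singled out. For KO1 minus KO2, Plau differed by 0.75 (SE 0.294, adjusted p = 0.721 with limma). For knockouts minus PBS, Plau differed by 0.51 (SE 0.237, adjusted p = 0.901 with limma) and Plat by -0.47 (SE 0.120, adjusted p = 0.742 with limma). At 2 or 3 libraries a group, differences of this size did not pass the threshold over all genes. In the authors' deposited table of a likelihood ratio test over all groups, Plat had an adjusted p of 0.00163 and Plau of 0.0486 in endothelial cells, and the other 6 genes were not listed. That test also uses the WT and PBS libraries in which Plat was singled out.

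**Figure D5:**
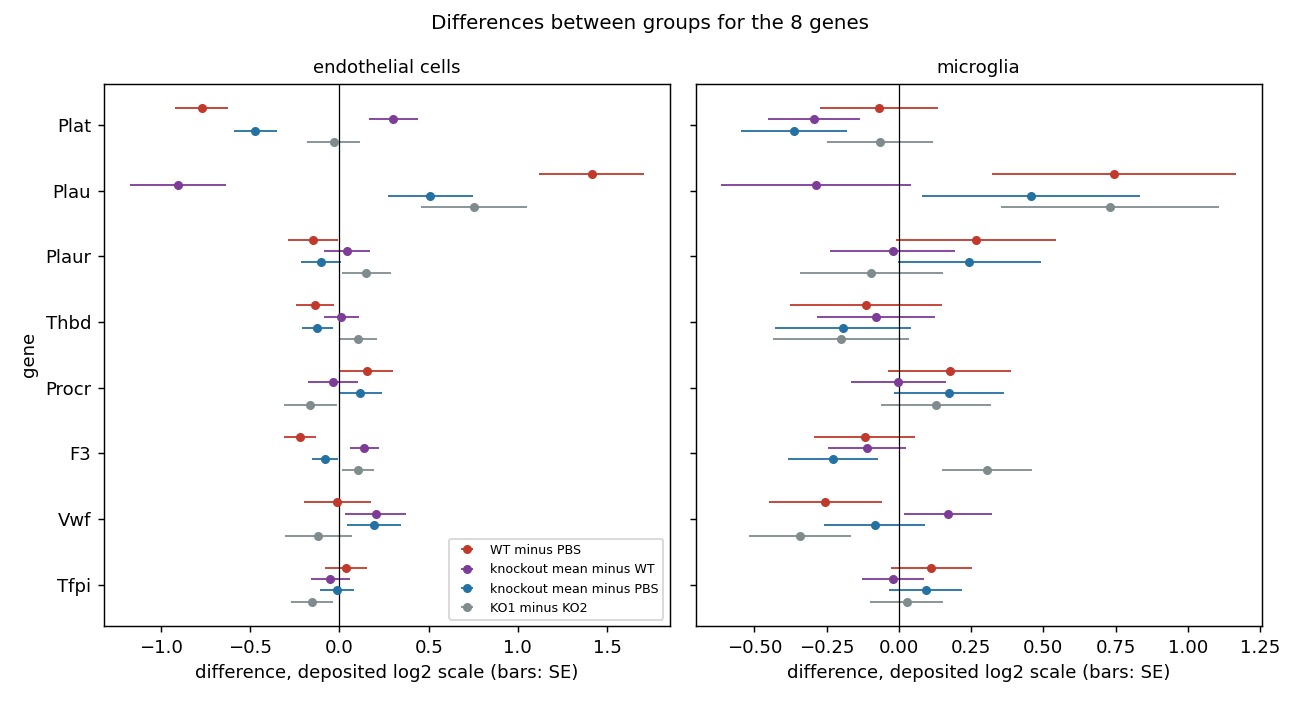
Differences between groups for the 8 genes (x axis, deposited log2 scale) in 4 comparisons per cell type, with bars of 1 SE. Endothelial Plau lies at -0.90 for knockouts minus WT, and no gene passed the adjusted threshold.

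Groups that did not overlap were counted too. For endothelial WT against PBS these were 3 of 8 genes, where 35.1% of all genes did not overlap. Plau was higher (16.6% of all genes) and F3 and Plat were lower (18.4%), and nothing is read from the count since the genes were chosen with this comparison in view. For microglia WT against PBS they were also 3 of 8, with Plau higher and F3 and Plat lower, where 17.6% of all genes did not overlap (8.29% higher, 9.3% lower). For Plat this rested on PBS A at 216 counts against WT A at 214, a gap of a read or so, and limma gave a difference of -0.07 (SE 0.205). For endothelial knockouts against WT it was Plat, higher (9.65% of all genes in either direction, 4.82% higher). For knockouts against PBS it was Plat, lower (5.04% in either direction, 2.64% lower), and for KO1 against KO2 it was F3, higher (17.1% in either direction, 8.11% higher). In microglia it was Plat, lower, for knockouts against PBS (6.83% in either direction, 3.57% lower), and none of the 8 for knockouts against WT (1.7%) or KO1 against KO2 (7.74%). Leaving out KO1 C from the endothelial fit moved the count past the adjusted threshold for WT minus PBS from 0 to 2 (Plat and Plau), and nothing is read from this count either, since the genes were chosen with the comparison in view.

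The other genes of plasminogen activation and haemostasis were read as a list of 59, of which 35 were tested in endothelial cells and 32 in microglia. None of the list passed an adjusted p of 0.05 by limma in any of the 8 comparisons. At an unadjusted p under 0.05, 6, 4, 5 and 1 passed in endothelial cells and 3, 0, 4 and 2 in microglia, for WT minus PBS, knockouts minus WT, knockouts minus PBS and KO1 minus KO2 in turn. Over all genes the shares were 10.2%, 9.31%, 5.49% and 6.45% in endothelial cells and 5.13%, 3.24%, 5.12% and 3.59% in microglia. The median difference of endothelial WT minus PBS over the list was 0.07 against -0.01 for all genes, with 21 genes higher and 14 lower (4440 and 5037 of all genes). In microglia it was 15 higher and 17 lower for the same comparison (6037 and 5925 of all genes). The authors' deposited table of a likelihood ratio test over all groups listed 2 genes of the list in each cell type, F2rl2 and F5 in endothelial cells and F2r and Pros1 in microglia.

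The 6 list genes of highest mean level in endothelium were Angpt2, Anxa5, Nos3, Anxa2, Selp and Pros1. Angpt2, a vessel-destabilising ligand kept in Weibel-Palade bodies, had 94255 to 131220 counts in PBS and 75991 to 77134 in WT. Anxa5, an annexin that shields phosphatidylserine, had 22765 to 31979 in PBS and 13650 to 20552 in WT. Selp, P-selectin, which captures leukocytes, had 1619 to 4719 in PBS and 3911 and 29584 in WT, where its WT minus PBS difference was 0.78 (SE 0.463). Nos3, endothelial nitric oxide synthase, Anxa2, a plasminogen receptor, and Pros1, the cofactor protein S, overlapped between PBS and WT. Microglia had Cd63, Anxa5, Lman1, Lrp1, Pros1 and Anxa2 as the 6 highest, Cd63 at 62380 to 67948 in PBS and 60063 to 69602 in WT.

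Across endothelial libraries, 2 pairs of the 8 genes had levels that ran together or opposite. Over the 10 endothelial libraries Pearson's r was -0.85 for Plat with Plau and 0.90 for Plaur with Thbd, as a description of libraries that share sort, depth and composition. Over the 11 microglia libraries r was -0.19 for Plat with Plau and -0.41 for Plaur with Thbd. No other pair of the 8 exceeded an absolute r of 0.6 in either cell type. The 2 endothelial values are named because they were the most extreme of all pairs, so their size can come from that choice. The endothelial value for Plat with Plau also uses the WT and PBS libraries in which Plat was singled out, so nothing is read from it. The genes most like endothelial Plat were Zfand2a (r 0.97), Slc2a1 (0.94) and Mafk (0.93) over 10 libraries. Those most like endothelial Plau were Trap1 (0.94), Nudt16l1 (0.94) and Tmem209 (0.93) over 10. Those most like microglial Plau were Adat1, Senp1 and D830030K20Rik (each 0.95) over 11. These genes are the highest of all genes tested, so values this high can come from the search alone.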

How the data were processed

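The submitters' processing notes name FastQC 0.11.7, Trimmomatic 0.38, Salmon 0.10.0, DESeq2 1.18.1 and GRCm38.p6 without roles. The authors deposited variance-stabilised log2 values per cell type, whose lowest value, that of genes without reads (the floor), is 13.2814 for endothelial cells and 9.88926 for microglia. For genes of a likelihood ratio test the authors deposited mean normalised counts (a signal), fold changes and statistics (scores) and p-values, with no contrast stated.

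Normalised counts were recovered from the log2 values. The endothelial transform has a closed inverse (ratio of 1 to the authors' means over 362 genes). The microglia curve was fitted to the authors' means of 238 genes and to the steps that whole reads leave, with a largest held-out error of 2.29%. In normalised counts, 1 read was worth 0.722 to 1.53 (endothelial) or 0.633 to 1.29 (microglia).

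Tests used limma 3.58.1 (R 4.3.3) with a mean-variance trend on the deposited log2 values, with 1 fit per cell type over its 4 groups. Genes with a mean at least 0.1 above the floor were kept, and p-values were adjusted over all genes tested (Benjamini-Hochberg, 0.05). Earlier work used 1 above the floor, which keeps only very strongly expressed endothelial genes. The filter was lowered because that would have dropped most of the 8 genes. That all 8 passed is therefore no result, and the number of genes tested follows from this choice. The script was tested on simulated data. Alternatives were other filters, log2(count + 50) and log2(count + 10), the letter as a block, only the compared groups, left-out libraries or letters, and no trend. The design assumed 3 libraries a group, and 2 or 3 were present.

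The 8 genes and all lists were chosen with earlier results of these data known. Named are the 8 genes, list genes past the threshold, the 6 list genes of highest mean level per cell type and, for Plat and Plau, the 3 genes of highest Pearson's r. Per-kilobase levels used summed exon lengths, and 20537 of 20555 identifiers had a symbol.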

Additional observations from a re-analysis of the deposited data

Results flagged for a closer look

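Plat differed in direction between the cell types for KO1 over WT. The ratio of mean normalised counts was 1.37 in endothelial cells, where every KO1 library lay above both WT libraries, and 0.235 in microglia, where every KO1 library lay below all 3 WT libraries. Within letters, endothelial KO1 over WT was 1.14 in A and 1.15 in B. The highest KO1 library, C at 50091 counts, has no endothelial WT library of its letter. In microglia KO1 over WT was 0.0530, 0 and 0.869 in A, B and C. The difference between the cell types was not tested. The endothelial ratio uses the WT libraries in which Plat was singled out. KO1 alone was not fitted against WT, and the share of all genes that part these groups was not computed. For knockouts minus WT, Plat had an adjusted p of 0.536 in endothelial cells and 0.9996 in microglia with limma. Microglial Plat was at or below 121 counts in the KO1 libraries, and 1 of them was at 0.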

How the results depend on the processing

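The number of the 8 genes past the threshold was 0 in each of the 8 comparisons, and it stayed 0 under every alternative except for endothelial WT minus PBS. There it was 1 (Plau) when only the compared groups were fitted, where 12 of all genes passed, and 0 to 2 over the leave-one-out fits, with 2 (Plat and Plau) without KO1 C. Their differences were the same as in the full fit, since only the shared spread uses KO1 C. The genes were chosen with this comparison in view, so these counts are no evidence of a difference. The main fits did not take the letters as pairs. The deviations of same-letter libraries correlated at 0.0218 to 0.236 over 12 endothelial pairs and at 0.0122 to 0.329 over 15 microglia pairs. Of these, 7 were above 0.1 in each cell type, against 1 of 25 endothelial and 0 of 30 microglia pairs of different letters. Libraries that share a letter were more alike by this measure. The letters present are not the same in every group, so fits without the letter can mix letter with group. The median was 0.127 for the same letter against -0.0527 for different letters in endothelial cells, and 0.0744 against -0.0393 in microglia. Deviations were taken from group means, so those of a group's libraries balance out. Negative values for different letters are therefore partly fixed by the centring, and the medians are not independent. With the replicate block (the letter), 0 of 8 genes passed, and endothelial WT minus PBS was -0.73 for Plat and 1.29 for Plau. Plau did not reach the filter of 1 above the floor in endothelial cells, so it has no value there. On log2(count + 50) the endothelial WT minus PBS differences were -1.09 for Plat and 4.40 for Plau. The printed differences of Plat and Plau that were followed over the alternatives kept their sign, as did F3 for endothelial WT minus PBS. Microglial Plat for WT minus PBS was not among them, and Selp and the list medians were not rerun. Low counts limit Thbd, Vwf and Plat in microglia.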

Other observations

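The following genes of the haemostasis list were chosen after their values were seen. Plg, plasminogen itself, was at 0 in all 21 libraries. Serpinb2, a urokinase inhibitor, ranged from 0 to 4497 in microglia, highest in KO1 B and next in WT B at 3831. F2r, a thrombin receptor, was at 0 in both PBS libraries of microglia and ran from 17.3 to 553 in WT. Its WT minus PBS difference had an adjusted p of 0.773 by limma, and 8.29% of all genes were higher without overlap in that comparison. The knockouts minus PBS difference of F2r had an adjusted p of 0.343 by limma. The authors' deposited table of a test over all groups lists this gene.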
